A study of Homo sapiens with 6 samples.

Results

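The mitochondrial protein import machinery was described through 35 listed genes in 293T cells given a miR-941 mimic or a scrambled control oligonucleotide. Of the 35, 34 were matched by Ensembl identifier in the count tables, out of 26613 genes counted in all, and all 34 passed the filter on low counts that left 15607 tested genes. The remaining one, TIMM23, the channel subunit of the presequence translocase, was not matched by its current identifier, and its expression was not analysed here. The members are a list by function, and they were sorted into 9 groups by role, from the receptors on the mitochondrial surface to the protease in the matrix.

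The mimic group held 3 cultures of 293T cells transfected with a miR-941 duplex at a final concentration of 10 nM. The mock group held 3 cultures transfected with a scrambled oligonucleotide, for which no concentration was recorded. 293T cells descend from HEK293, a line made from human embryonic kidney, and carry the SV40 large T antigen. Every culture in both groups was of this line and was plated 24 h before transfection. All libraries therefore come from transfected cells of 1 line, with no untransfected group, and no source used here gives how long after transfection the RNA was taken. Libraries from total RNA depleted of ribosomal RNA gave single-end reads of 100 bases, which the authors counted per gene.

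Most mitochondrial proteins are encoded in the nucleus, made in the cytosol and carried into the organelle after or during translation. The TOM complex of the outer membrane is the common entry gate, from which precursors pass to the SAM complex (outer membrane barrels), the disulfide relay of the intermembrane space, the small TIM chaperones and TIM22 (inner membrane carriers), or TIM23 and its ATP-driven motor (matrix proteins). In the matrix, the presequence that directed the protein is removed by a dedicated protease. An mRNA level does not measure import itself, and bulk counts cannot tell fewer cells with a transcript apart from less transcript per cell.

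A mimic duplex supplies a microRNA strand whose bases 2 to 8, the seed, pair with sites in the 3′ UTRs of mRNAs. The mature miR-941 strand below is shown because it is the agent that was transfected, with its seed in capitals. RefSeq annotates it at 5 neighbouring loci on chromosome 20 (GRCh38.p14), the first at chr20:63919495-63919517 on the plus strand, and all 5 have the same 23 bases.
hsa-miR-941: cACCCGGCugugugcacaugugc

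The sequence complementary to the seed is GCCGGGT. It was present in the longest annotated 3′ UTR of 2 of the 34 import genes (5.88%), against 706 of 13110 tested genes with an annotated 3′ UTR (5.39%). TIMM22, the channel of the carrier translocase, had 1 site, 598 bases into its 2583-base 3′ UTR and in exon 4, the last. The site lies at chr17:1001686-1001692 on the plus strand of GRCh38. It comes from a match to GENCODE release 29 transcripts and not from the hg19 build of the authors' processing. It is a 7mer site, with no A after the 7 bases, and is printed with 11 bases on either side to set it beside the seed, the site in capitals.
TIMM22: ccaaaaatagtGCCGGGTggcccaaagat
No import gene had GCCGGGT in the coding sequence or the 5′ UTR of the same transcript. None of the 4 members described next as changed had a site in this search. With sites in 5.39% of tested genes, most sets of 4 genes would have none.

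Of the 34 measured import genes, 3 rose and 1 fell in cells given the mimic. TOMM22, the central receptor of the outer membrane gate, rose to 1.68 times its mock level. GRPEL2 and HSPA9, a nucleotide exchange factor and the HSP70 of the matrix import motor, rose to 1.32 and 1.10 times. TIMM50, the receptor of the presequence translocase, fell to 0.892 times. A gene was called where its Benjamini-Hochberg adjusted p in edgeR's quasi-likelihood test, taken over the whole table, was under 0.05. By the same rule 1061 genes rose (6.8% of all tested) and 966 fell (6.19%), together 13.0%, against 11.8% of the import genes, so the share of changed members was near that of all genes.

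**Figure D1:**
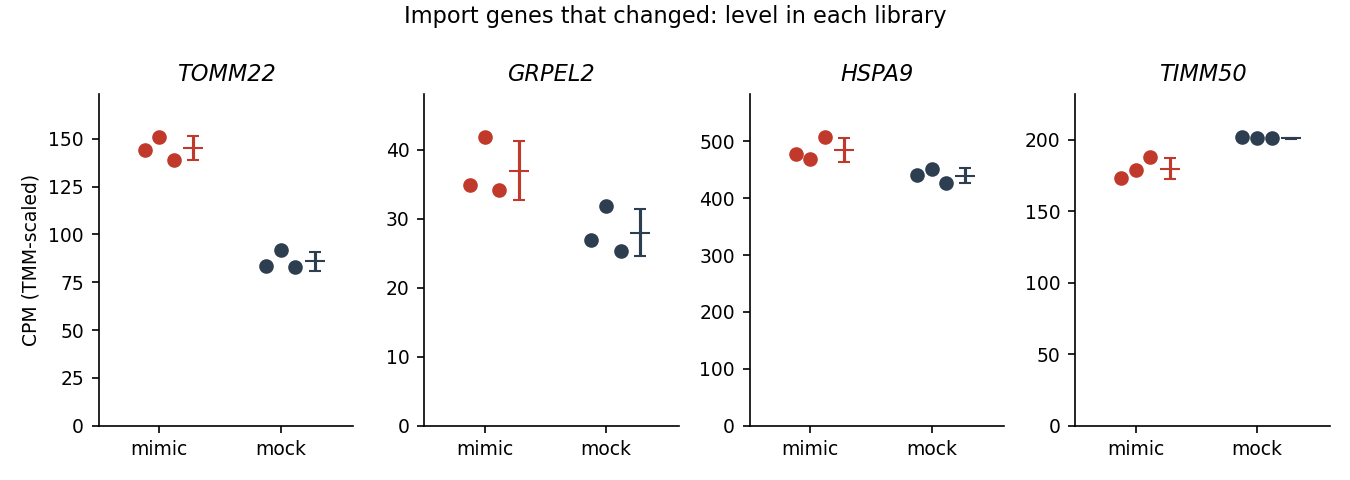
Level of TOMM22, GRPEL2, HSPA9 and TIMM50 in CPM (counts scaled to library size) in each of the 3 mimic libraries (red) and 3 mock libraries (dark); dots are libraries and bars beside them the mean ± SD. TOMM22 lies at 139 to 151 CPM after the mimic, above every mock library, and TIMM50 is the only one of the 4 that lies below its mock libraries.

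The depth of the mimic libraries was 6401918 to 7651046 counts, against 6079420 to 7405330 in the mock libraries. The members were well covered, with 80 to 3618 counts in a library. Levels are given in CPM, counts scaled to library size and between libraries by the trimmed mean of M-values (TMM), with factors of 0.994 to 1.01. The spread of a member between libraries of a group, as a coefficient of variation, had a median of 5.78% in the mimic group and 5.65% in the mock group. Mimic replicate 3 had a score of −18.9 on the second principal component, where the other mimic libraries had 8.44 and 13.6. On the third, mock replicate 3 had 18.6 and the other mock libraries −11.6 and −8.31. The labels call the transfections independent, and p-values measure the spread between these cultures of 1 line.

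As a check of the line, the neurofilament gene NEFM, known to be expressed in HEK293 cells, was at 78.5 to 83.9 CPM in mimic and 54.1 to 58.3 CPM in mock libraries, and the kidney transcription factor gene PAX2 at 6.99 to 10.9 CPM in mimic and 5.97 to 7.21 CPM in mock libraries. NEFM itself rose after the mimic, by 0.55 ± 0.07 (log2 fold change ± SE, edgeR, adjusted p = 9.13e-10). NEFL, also listed as a marker of the line, was not matched by identifier. Of 13 markers of blood, liver, connective tissue, endothelium and keratinocytes, 8 were matched, summing to 2.05 to 2.93 CPM in mimic and 3.11 to 3.48 CPM in mock libraries. Most of that was LUM, with 11 to 14 counts in mimic and 14 to 22 in mock libraries. The other 7 had at most 4 counts in any library. Their part in the results was not tested.

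The TOM receptors bind precursors on the cytosolic side. TOMM22 spans the outer membrane, binds presequences on both faces and holds the TOM complex together. It was counted at 144, 151 and 139 CPM in the 3 mimic libraries, against 83.6, 91.8 and 82.8 CPM in the 3 mock libraries. The groups were far apart, with the lowest mimic library above the highest mock library. The log2 fold change was 0.75 ± 0.06 (SE; edgeR, adjusted p = 7.95e-17), and the means were 145 ± 6.34 CPM in mimic and 86.0 ± 4.98 CPM in mock cells (SD, n = 3 each).

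Among the 1061 genes that rose, TOMM22 was the 8th by p-value and the 64th by size of change. It stayed past the threshold in all 13 alternative fits, at log2 fold changes of 0.71 to 0.80. The gene spans chr22:38681948-38685421 (plus strand, GRCh38, GENCODE release 29). Its exons overlap those of no other counted gene in that annotation, and no stretch of 100 bases of its transcripts is shared with another annotated gene. Its processed pseudogene TOMM22P5 had 17, 11 and 12 counts in the mimic libraries, against 7, 5 and 3 in the mock libraries, and was also called (log2 fold change 1.36 ± 0.42, edgeR, adjusted p = 0.021). At these counts and with a near copy elsewhere in the genome, the pseudogene's change is uncertain.

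The other genes of the receptor group were not called. TOMM20, which recognises presequences and is the most abundant receptor per length, had 391, 376 and 350.4 CPM in mimic libraries, against 369.7, 343 and 324 CPM in mock libraries. The groups overlapped, and the log2 fold change of 0.11 ± 0.05 did not pass (edgeR, adjusted p = 0.145). It passed only without mimic replicate 3 (adjusted p = 0.0124). TOMM70, the receptor for carrier precursors delivered by cytosolic chaperones, was at 91.9 to 92.6 CPM in mimic and 88.9 to 99.5 CPM in mock libraries, a log2 fold change of −0.03 ± 0.06. TOMM34, a cytosolic partner of HSP70 and HSP90 on the way to the gate, was at 83.4 to 96.7 CPM in mimic and 79.4 to 87.9 CPM in mock libraries, a log2 fold change of 0.12 ± 0.06. The summed level of the 4 genes in this group, TOMM34 included, was 699 ± 30.8 CPM in mimic and 608 ± 29.9 CPM in mock cells (SD, n = 3 each). The TOMM22 difference made up most of the difference between these sums.

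The channel of the gate and its small subunits were not called in either direction. TOMM40, the barrel through which precursors cross the outer membrane, was at 173 to 181 CPM in mimic and 184 to 192 CPM in mock libraries. All mimic libraries lay below all mock libraries, but the log2 fold change of −0.07 ± 0.05 did not pass (edgeR, adjusted p = 0.369). Its paralog TOMM40L was at 19.0 to 21.6 CPM in mimic and 21.3 to 21.8 CPM in mock libraries, a log2 fold change of −0.07 ± 0.11. On the opposite strand, exons of NR1I3 overlap 20.1% of those of TOMM40L, and NR1I3 was counted at 34.5% of the TOMM40L level.

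Among the small subunits that assemble around the channel, TOMM5 had 109, 114 and 115 CPM in mimic libraries, against 128, 117 and 127 CPM in mock libraries. Its groups did not overlap, and its log2 fold change of −0.14 ± 0.06 did not pass (edgeR, adjusted p = 0.0784). TOMM5 shares exons on the same strand with AL138752.2 and AL513165.2, so its value is uncertain. AL513165.2, counted at 97.9 CPM in mimic and 115 CPM in mock cells, was called as fallen (log2 fold change −0.23, edgeR, adjusted p = 0.00209). AL138752.2 was not called (−0.14, edgeR, adjusted p = 0.0953). TOMM7 had the lowest log2 fold change of the members that did not pass, −0.21 ± 0.08 (adjusted p = 0.0817). Its mock libraries were widely spread, at 61.4, 49.5 and 67.4 CPM, and overlapped its mimic libraries, at 51.8, 52.8 and 49.0 CPM. Without mock replicate 2 its adjusted p was 0.00251, and that of TOMM5 was 0.0462 (0.0416 without mimic replicate 3). TOMM6, at 153 to 176 CPM in mimic and 143 to 165 CPM in mock libraries, had a log2 fold change of 0.05 ± 0.06. All exons of TOMM6 lie within those of AL365205.1, counted at 114% of its level, so its counts cannot be assigned with certainty.

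The SAM complex folds barrel proteins into the outer membrane, and the metaxins are its cytosolic partners. Its core subunit SAMM50 was at 80.3 to 87.4 CPM in mimic and 83.1 to 91.3 CPM in mock libraries, a log2 fold change of −0.09 ± 0.06. MTX1 and MTX2 had log2 fold changes of −0.06 ± 0.10 and −0.04 ± 0.08. MTX1 shares 13.35% of its 100-base stretches with the pseudogene MTX1P1, which was counted at 7.08% of its level. The groups overlapped in all 3 genes, and none was called by edgeR or DESeq2 or had an unadjusted p under 0.05.

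The disulfide relay traps small cysteine-rich proteins in the intermembrane space. CHCHD4, the oxidoreductase that puts disulfide bonds into them, had 27.6 to 28.8 CPM in mimic libraries, against 23.0 to 24.3 CPM in mock libraries. The groups did not overlap, but the log2 fold change of 0.25 ± 0.10 did not pass (edgeR, adjusted p = 0.0793), and it did not pass in any of the 13 alternative fits. GFER, the oxidase that regenerates CHCHD4, was at 35.7 to 42.3 CPM in mimic and 38.9 to 40.5 CPM in mock libraries, a log2 fold change of −0.01 ± 0.08. Over 25.87% of their length, exons of GFER overlap those of AC005606.2 on the opposite strand. That transcript reached 40.6% of its level, and the counting is not stated to use strand.

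The small TIM proteins escort membrane proteins across the intermembrane space as rings of alternating subunits, and none of the 6 was called by edgeR or DESeq2 or had an unadjusted p under 0.05. TIMM9 and TIMM10, which form the main ring, had log2 fold changes of −0.01 ± 0.12 and −0.01 ± 0.09. TIMM8A, whose loss causes deafness-dystonia syndrome, and its partner TIMM13 had 0.09 ± 0.09 and −0.12 ± 0.06, and TIMM8B and TIMM10B had 0.01 ± 0.07 and −0.04 ± 0.08. TIMM9 had the highest coefficient of variation of any member in the mimic group, 17.2%, at 15.0, 20.8 and 16.5 CPM in mimic libraries and 19.5, 17.9 and 14.9 CPM in mock libraries. Their summed level was 283 ± 10.1 CPM in mimic and 290.1 ± 4.88 CPM in mock cells (SD, n = 3 each), a difference smaller than the spread. TIMM13 shares 8.10% of its 100-base stretches with LMNB2, counted at 313% of its level and higher after the mimic (log2 fold change 0.15). On the opposite strand, 30.1% of the exons of TIMM8B overlap NKAPD1. In TIMM9, 14.87% of the exons overlap KIAA0586 on the opposite strand, which was counted at 192% of the TIMM9 level.

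TIM22 inserts metabolite carriers into the inner membrane. TIMM22 had 58.9, 51.4 and 60.8 CPM in mimic libraries, against 60.1, 63.0 and 62.6 CPM in mock libraries. The highest mimic library lay above the lowest mock library, and the log2 fold change of −0.12 ± 0.07 did not pass (edgeR, adjusted p = 0.294). Exons of TIMM22 overlap those of ABR on the opposite strand over 4.82% of their length, and ABR was counted at 272% of its level and fell by 0.25 on the log2 scale. TIMM29, a metazoan subunit that joins TIMM22 to the outer gate, was at 18.1 to 24.9 CPM in mimic and 17.5 to 22.3 CPM in mock libraries, a log2 fold change of 0.12 ± 0.11.

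TIM23 carries presequence proteins into and across the inner membrane. TIMM50, which receives the presequence as it leaves the outer gate and keeps the channel closed at rest, had 173, 179 and 188 CPM in mimic libraries, against 202, 201 and 201 CPM in mock libraries. All mimic libraries lay below all mock libraries. The log2 fold change was −0.16 ± 0.05 (edgeR, adjusted p = 0.0154), and the means were 179.8 ± 7.26 CPM in mimic and 201 ± 0.214 CPM in mock cells (SD, n = 3 each). That mock spread, 0.106% as a coefficient of variation, was the lowest of any member, against a median of 5.65% in the mock group. It is not to be read as the precision of the mock level.

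The call for TIMM50 was narrow. It ended under DESeq2's Wald test (adjusted p = 0.0536), without mimic replicate 1 (0.129), without mock replicate 1 (0.0611) and without mock replicate 3 (0.0542), while its log2 fold change stayed between −0.20 and −0.14 over the 13 alternatives. TIMM17A and TIMM17B, alternative channel subunits of TIM23, had log2 fold changes of 0.09 ± 0.06 and −0.02 ± 0.07. TIMM21, which links TIM23 to the outer gate and to respiratory chain assembly, was at 47.1 to 49.2 CPM in mimic and 47.0 to 52.8 CPM in mock libraries (−0.09 ± 0.07). TIMM23B, a near-identical copy of TIMM23, was counted at 3.47 ± 0.655 CPM in mimic and 3.32 ± 0.669 CPM in mock cells (SD, n = 3 each), and no source used here says how reads were divided between the copies.

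The presequence motor pulls proteins into the matrix, with HSPA9 as its ATPase and GRPEL1 and GRPEL2 as exchange factors that release its ADP. GRPEL2 had 34.9, 41.9 and 34.2 CPM in mimic libraries, against 26.9, 31.8 and 25.4 CPM in mock libraries. The groups did not overlap, with replicate 2 the highest of its group in both. The log2 fold change was 0.40 ± 0.09 (edgeR, adjusted p = 0.00156). It stayed past the threshold in all 13 alternatives, with adjusted p of 0.000172 to 0.0460.

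HSPA9, also called mortalin, was the most abundant member by count. It had 477, 469 and 508 CPM in mimic libraries, against 441, 451 and 426 CPM in mock libraries. The groups did not overlap, and the log2 fold change was 0.14 ± 0.05 (edgeR, adjusted p = 0.0302). The call ended under DESeq2's Wald test (adjusted p = 0.0673) and without mimic replicate 1 (0.0661), mimic replicate 3 (0.0905), mock replicate 1 (0.0926) or mock replicate 3 (0.178). Over the 13 alternatives its log2 fold change was 0.10 to 0.16.

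The other motor subunits were not called. GRPEL1, the housekeeping exchange factor, was at 41.6 to 46.0 CPM in mimic and 41.3 to 45.3 CPM in mock libraries, a log2 fold change of −0.01 ± 0.08. TIMM44, which anchors HSPA9 at the channel, had −0.02 ± 0.07, and the J-domain pair PAM16 and DNAJC19, which control its ATPase, had 0.07 ± 0.11 and 0.09 ± 0.13. PAM16 shares 17.57% of its 100-base stretches with the readthrough gene CORO7-PAM16, counted at 205% of its level. DNAJC19 shares 2.01% with the pseudogene DNAJC19P9, counted at 39.1% of the DNAJC19 level. The summed level of the 6 motor genes was 658 ± 15.9 CPM in mimic and 604 ± 14.8 CPM in mock cells (SD, n = 3 each), most of it HSPA9.

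The presequence protease, a dimer of PMPCA and the catalytic PMPCB, ends the pathway. PMPCA was at 145 to 162 CPM in mimic and 146 to 152 CPM in mock libraries, and PMPCB at 116 to 135 CPM in mimic and 114 to 127 CPM in mock libraries. Their log2 fold changes were 0.05 ± 0.05 and 0.04 ± 0.06, and neither was called. Exons of PMPCB overlap those of DNAJC2 on the opposite strand over 12.99% of their length, and DNAJC2 was counted at 72.1% of its level and rose by 0.23 on the log2 scale.

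**Figure D2:**
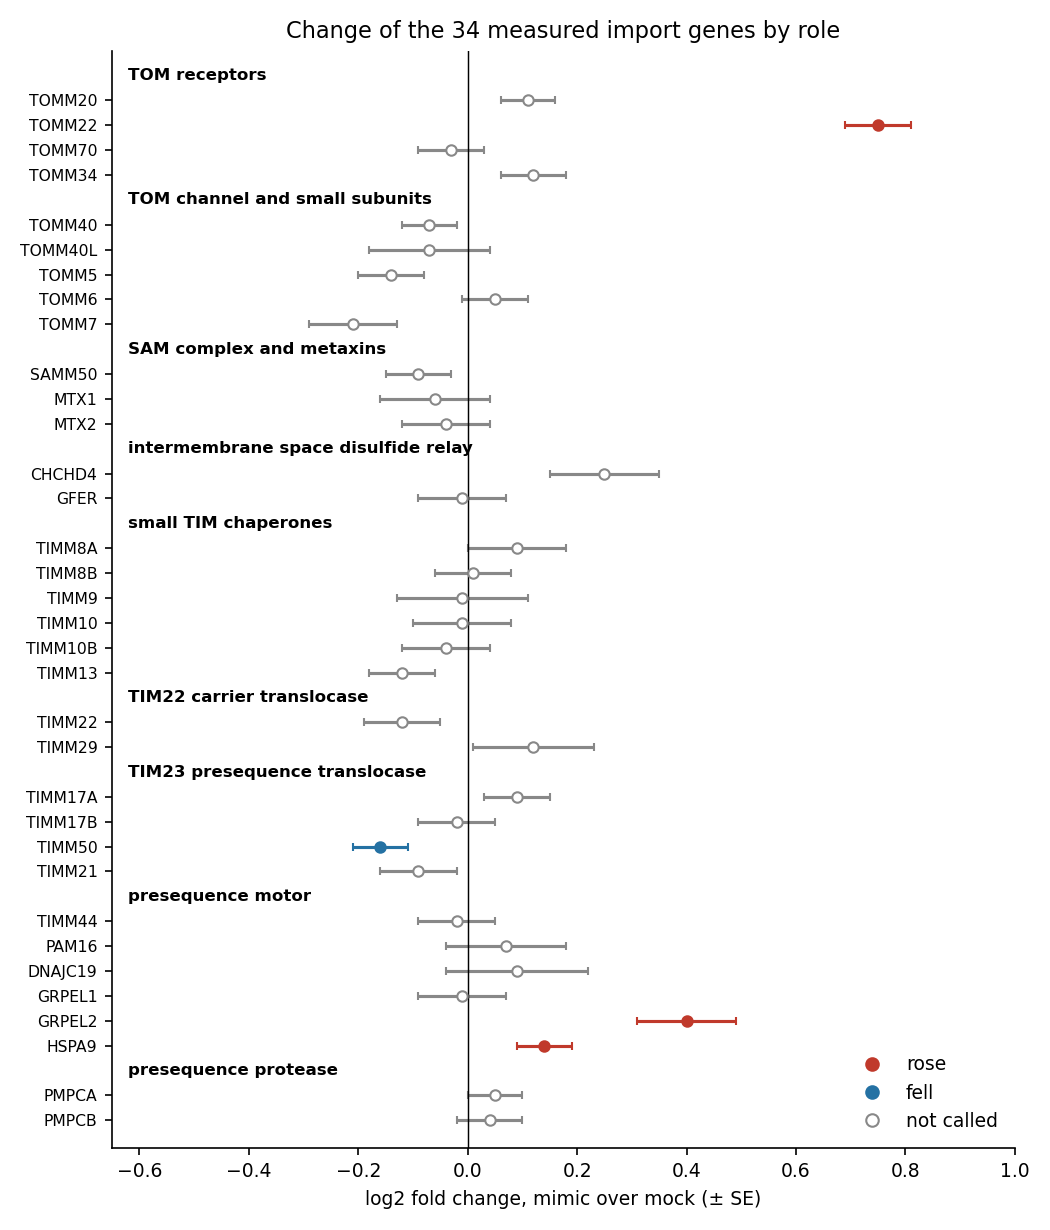
Log2 fold change (mimic over mock, ± SE) of the 34 measured import genes, in 9 role groups from the receptors to the protease; filled red points rose, filled blue points fell and open grey points were not called. TOMM22 stands alone at 0.75, followed by GRPEL2 at 0.40, while the uncalled members lie between −0.21 and 0.25.

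Over all 34 members, 15 log2 fold changes were above 0 and 19 below, with a median of −0.01, against 0.00 over all tested genes. The median absolute log2 fold change was 0.08 for the members and 0.12 for all tested genes, which were not matched to the members by level. The 30 members that were not called had standard errors of 0.05 to 0.13, and 28 of them lay within 0.15 of 0. In 7 members (20.6%) the 2 groups of libraries did not overlap, 4 with the mimic above and 3 with it below, against 28.3% of all tested genes. An unadjusted p under 0.05 was reached by 8 members (23.5%), the 4 that were called and TOMM20, CHCHD4, TOMM5 and TOMM7, against 25.5% of all tested genes. DESeq2's Wald test called TOMM22 and GRPEL2 and no other member. The summed level of the 34 genes was 3117, 3108 and 3109 CPM in mimic libraries, against 3066, 3005 and 2978 CPM in mock libraries, a ratio of means of 1.03.

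Paralogs that serve the same step were compared by their log2 ratio in each library, after adding 1 CPM to each level. The pair whose ratio changed most was GRPEL1 over GRPEL2, whose levels came closer together, with log2 ratios of 0.29, −0.01 and 0.42 in mimic libraries, against 0.73, 0.47 and 0.68 in mock libraries. Every mimic library lay below every mock library. The difference of the means was −0.39, with p = 0.10 by a two-sided exact permutation test, which is the smallest p that 3 against 3 libraries can give, and 0.70 after Benjamini-Hochberg adjustment over 7 pairs. TIMM17A over TIMM17B differed by 0.11 (p = 0.5) and TIMM8A over TIMM8B by 0.08 (p = 0.3; two-sided exact permutation tests), and in both pairs the libraries overlapped. The other 4 pairs, TOMM40 and TOMM40L, TIMM10 and TIMM10B, MTX1 and MTX2, and PMPCA and PMPCB, differed by −0.01 to 0.03. No pair could pass 0.05 in this design.

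Levels of different genes were compared per length, as CPM per kilobase of annotated exon (GENCODE release 29). TOMM6 was highest in both groups, at 256 ± 17.9 CPM per kb in mimic and 247 ± 20.3 in mock cells (SD, n = 3 each). Its place is uncertain, because all its exons lie within those of AL365205.1. TOMM20 followed at 105 ± 5.80 in mimic and 97.6 ± 6.43 in mock cells. TIMM13, HSPA9 and TOMM40 came next in mock cells at 55.1 ± 4.05, 53.3 ± 1.52 and 52.0 ± 1.07 CPM per kb, which do not differ beyond their spread. DNAJC19 was lowest at 3.71 ± 0.194 in mimic and 3.49 ± 0.307 in mock cells. GRPEL2 was next in mock cells, at 6.34 ± 0.763. In mimic cells it was at 8.37 ± 0.965, above TOMM40L (6.26), MTX1 (6.96) and TIMM8A (8.02). TOMM22 rose to 66.0 ± 2.90 CPM per kb in mimic cells, against 39.3 ± 2.27 in mock cells, where TOMM34 stood beside it at 39.9 ± 2.36. The order depends on the annotated length. Per length of the longest transcript GRPEL2 was lowest in mock cells at 6.82 CPM per kb, and TOMM40L and DNAJC19 were beside each other at 7.68 and 7.69. On that scale HSPA9 was at 93.0 and TIMM50 at 78.2 CPM per kb in mock cells, against 53.3 and 29.1 per length of all exons.

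**Figure D3:**
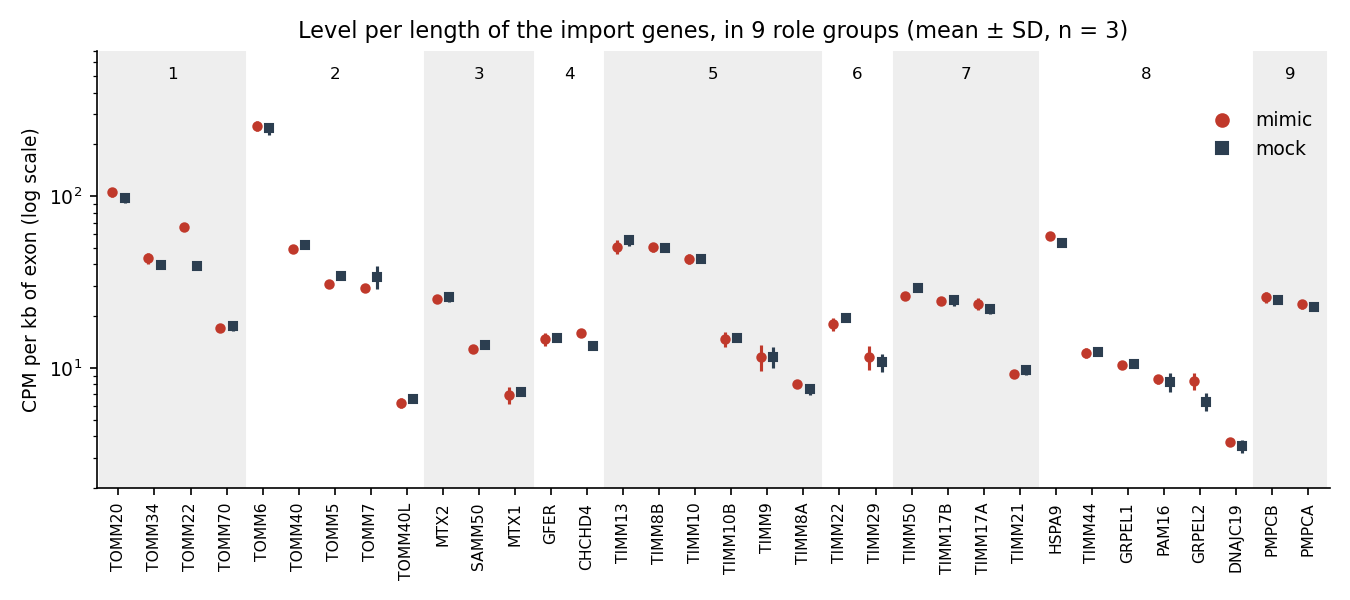
Level of each import gene in CPM per kb of exon (log axis), as mean ± SD of 3 mimic libraries (red circles) and 3 mock libraries (dark squares); shaded and plain bands number the 9 roles: 1 TOM receptors, 2 TOM channel and small subunits, 3 SAM complex and metaxins, 4 disulfide relay, 5 small TIM chaperones, 6 TIM22, 7 TIM23, 8 motor, 9 protease. TOMM22 has the widest gap between its points, at 66.0 in mimic and 39.3 in mock cells.

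Promoters of the members were searched for motifs of factors known for nuclear genes of mitochondria, as a feature the choice of members did not use. NRF1 was given as GCGCA, any base and GCGC, and factors of the ETS family such as GABP as CCGGAAGT, and both strands of the 250 bases before the start site were searched in RefSeq promoters (GRCh38.p14). Promoters of 32 of the 35 listed members were found, TIMM23 among them, and those of TOMM5, TIMM8B and GRPEL1 were not. The NRF1 motif was present in 7 of 32 members (21.9%), against 6.2% of the 27305 genes in the promoter set. These were TOMM20, TOMM34, TOMM40, TOMM7, CHCHD4, TIMM29 and PAM16. The ETS motif was also present in 7 of 32 (21.9%), against 4.13% of the same 27305 genes. These were TOMM20, TOMM70, TOMM6, TIMM10, TIMM10B, TIMM29 and GRPEL2. These are matches of letters and not measured binding. The 27305 genes were not limited to the 15607 tested here, while 34 of the 35 listed members were tested. The share among tested genes was not computed, so these shares do not compare members with other expressed genes.

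Of the 4 changed members, GRPEL2 was the one with a match, 2 copies of CCGGAAGT. Its promoter is shown for that reason, beside that of TOMM20, the most abundant receptor, which has 1 copy of each motif and did not pass the test. Motifs are in capitals, on either strand, and the sequences run 5′ to 3′ on the gene's strand. They lie at chr5:149345249-149345498 on the plus strand (GRPEL2) and chr1:235128838-235129087 on the minus strand (TOMM20).
GRPEL2: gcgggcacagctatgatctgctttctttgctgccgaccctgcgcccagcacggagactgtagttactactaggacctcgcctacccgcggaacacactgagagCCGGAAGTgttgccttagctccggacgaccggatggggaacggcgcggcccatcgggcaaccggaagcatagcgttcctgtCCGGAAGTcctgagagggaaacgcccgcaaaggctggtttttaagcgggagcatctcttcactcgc
TOMM20: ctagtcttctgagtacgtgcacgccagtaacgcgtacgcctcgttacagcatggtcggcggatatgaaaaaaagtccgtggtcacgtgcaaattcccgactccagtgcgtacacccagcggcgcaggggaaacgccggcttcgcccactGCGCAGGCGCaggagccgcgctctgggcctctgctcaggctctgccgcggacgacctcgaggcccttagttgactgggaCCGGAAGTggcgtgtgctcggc

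Other genes of the pathway were taken from 6 lists, of which 87 of 91 genes were tested. Of these, 7 rose and 7 fell, 16.1%, against 13.0% of all tested genes, and the share called in each list is to be read beside that 13.0%. At an unadjusted p under 0.05 the share of all tested genes was 25.5%, in either direction. Of 19 matrix chaperones and mitochondrial proteases, which fold or degrade proteins after import, 4 rose and none fell (21.1% called), with a median log2 fold change of 0.03. At an unadjusted p under 0.05, 5 were higher and 2 lower, and DESeq2 called 2 as risen. LONP1, the main protease of the matrix, had 134, 145 and 129 CPM in mimic libraries, against 102, 103 and 98.7 CPM in mock libraries. Its groups were well apart, with a log2 fold change of 0.42 ± 0.06 (edgeR, adjusted p = 1.99e-08). HSPD1, the chaperonin that folds imported proteins, was at 616 ± 21.1 CPM in mimic and 511 ± 10.7 CPM in mock cells (0.27 ± 0.04; edgeR, adjusted p = 4.48e-06).

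AFG3L2, an inner membrane protease, and CLPB, a disaggregase, rose by 0.19 ± 0.05 and 0.26 ± 0.08 on the log2 scale. The AFG3L2 call ended under DESeq2's Wald test (adjusted p = 0.0706), without mimic replicate 1 (0.0708) and without mock replicate 1 (0.0608). The CLPB call ended under DESeq2 (0.132), and when mimic replicate 1 (0.171), mock replicate 1 (0.0646) or mock replicate 2 (0.0754) was left out. Those of LONP1 and HSPD1 passed in all 13 alternatives.

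Of 11 other import and insertion genes, 2 fell and none rose (18.2% called), with a median of −0.01. At an unadjusted p under 0.05, 3 were lower and 0 higher, and DESeq2 called 0. OXA1L, the insertase of the inner membrane, was at 106 ± 6.24 CPM in mimic and 119 ± 8.33 CPM in mock cells, and ATAD1, which extracts mislocalised proteins from the outer membrane, at 88.5 ± 0.857 CPM in mimic and 99.5 ± 3.75 CPM in mock cells (SD, n = 3 each). Both changed by −0.17 ± 0.06, and both passed narrowly in edgeR (adjusted p = 0.0401 and 0.0404). Both calls ended under DESeq2 (0.174 and 0.165) and without mimic replicate 1, mimic replicate 3 or mock replicate 1, at 0.0512 to 0.357. That of OXA1L also ended without mock replicate 3 (0.0559), with upper-quartile scaling (0.0530) and with non-robust dispersions (0.0523), and that of ATAD1 without mimic replicate 2 (0.0704) or mock replicate 2 (0.177).

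None of the 7 genes of the MICOS complex, which shapes the cristae, was called by edgeR or by DESeq2 (median −0.08), and 2 had an unadjusted p under 0.05, both lower after the mimic. MICOS10, at 28.2 to 30.3 CPM in mimic libraries, against 31.5 to 42.0 CPM in mock libraries, had the smallest p of the 7, followed by MICOS13 (−0.19 ± 0.08). MICOS10 changed by −0.25 ± 0.09 on the log2 scale (edgeR, adjusted p = 0.0705, and 0.0305 without mock replicate 1).

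Of 19 substrates of the disulfide relay, 2 fell and none rose, with a median of −0.08. The share called, 10.5%, was below the 13.0% of all tested genes. At an unadjusted p under 0.05, 5 of 19 were lower and 0 higher, a share near the 25.5% of all tested genes, and DESeq2 called 1 as fallen. NDUFS5, a subunit of respiratory complex I, was at 133 ± 7.48 CPM in mimic and 154 ± 13.5 CPM in mock cells (−0.21 ± 0.06), and COX6B1, of complex IV, at 331 ± 14.5 CPM in mimic and 371 ± 12.9 CPM in mock cells (−0.16 ± 0.05; SD, n = 3 each). The NDUFS5 groups overlapped, and its call ended under DESeq2 (adjusted p = 0.0604), and when mimic replicate 1 (0.0583), mock replicate 1 (0.15) or mock replicate 3 (0.0521) was left out. The COX6B1 call ended without mock replicate 1 (0.114) or mock replicate 3 (0.0546).

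Of 14 cytosolic chaperones that hold precursors before import, HSPA8 was the one that rose, to 2016 ± 117 CPM in mimic cells, against 1768 ± 11.4 CPM in mock cells (0.19 ± 0.04; edgeR, adjusted p = 0.00127; median of the list 0.05). This was 7.14% of the list, and at an unadjusted p under 0.05, 2 were higher and 4 lower. Of 17 genes often used to gauge mitochondrial content, 2 rose and 3 fell, with a median of −0.05. The share called was 29.4%, against 13.0% of all tested genes. At an unadjusted p under 0.05, 3 were higher and 5 lower, and DESeq2 called 2 as fallen and 0 as risen. VDAC1, the pore of the outer membrane, had 223, 223 and 218 CPM in mimic libraries, against 262, 249 and 256 CPM in mock libraries (−0.21 ± 0.05; edgeR, adjusted p = 0.0011), and the ADP/ATP carrier SLC25A5 fell by 0.17 on the log2 scale (SE 0.05). The third to fall was UQCRC1, a core subunit of complex III, which was named after its values were seen, at 116 ± 7.04 CPM in mimic and 129.7 ± 7.32 CPM in mock cells (SD, n = 3 each; edgeR, adjusted p = 0.036). Its call ended under DESeq2 (0.154) and when mimic replicate 1 (0.135), mimic replicate 3 (0.0947), mock replicate 1 (0.281) or mock replicate 3 (0.0718) was left out. Cytochrome c (CYCS) and citrate synthase (CS) rose by 0.17 ± 0.05 and 0.14 ± 0.05. The VDAC1 and HSPA8 calls passed in all 13 alternatives. SLC25A5's ended without mock replicate 1 (adjusted p = 0.108). CYCS and CS were narrow calls, which ended under DESeq2 (0.133 and 0.115). They also ended when mimic replicate 1 (0.144 and 0.164) or any 1 of the 3 mock libraries was left out (0.0591 to 0.107 and 0.0825 to 0.133). That of CS also ended without mimic replicate 3 (0.0793) and with no filter (0.0596).

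**Figure D4:**
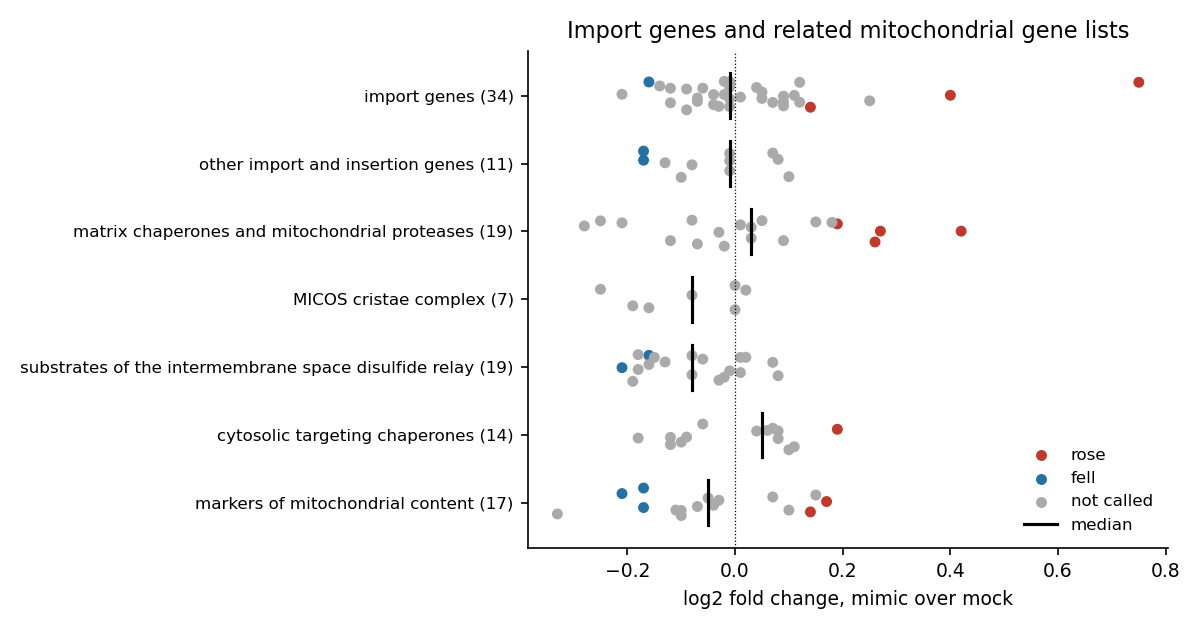
Log2 fold change (mimic over mock) of the 34 import genes and of 6 related lists, with the number of tested genes in brackets; each point is a gene, red where it rose, blue where it fell and grey where it was not called, and the black bar is the median. The medians lie between −0.08 and 0.05, and LONP1 at 0.42 is the furthest of the related genes from 0.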

How the data were processed

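Gene-level RNA-seq was analysed for 6 libraries, 3 per group, grouped by their titles. Each table, as deposited by the authors, holds raw counts by Ensembl identifier, and a gene missing from a table was taken as 0. STAR, edgeR and hg19 are named in the submitters' processing notes, which give neither the counting program nor its annotation or use of strand. Symbols came from a table of gene names, and exon lengths, overlaps and 3′ UTRs from GENCODE release 29 (GRCh38). Genes were filtered with edgeR's filterByExpr, scaled by TMM and tested with edgeR's quasi-likelihood test (two-sided, robust dispersions, group as the one term), and p-values were adjusted by Benjamini-Hochberg over 15607 genes. The standard error of a log2 fold change was derived from the test statistic. The test was run on simulated counts first. These had the same dispersion for every gene, so they do not show how the test behaves on these libraries. DESeq2's Wald test was run on all counted genes. Versions were R 4.3.3, edgeR 4.0.16, DESeq2 1.42.0 and scipy 1.17.1. At this depth 3 counts equal 0.392 to 0.493 CPM, and no molecular identifiers were available, so such limits cover counting error only. The members and lists were chosen with earlier results of these data known. Every member was named, with up to 4 called genes per related list by smallest p (or the 2 with the smallest p where none was called) and TIMM23B as a copy of TIMM23. UQCRC1, TOMM22P5 and genes that overlap a member or share sequence with it were named after their values were seen. Seed sites of 1 further member are not reported here.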

Additional observations from a re-analysis of the deposited data

How the results depend on the processing

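TOMM22 and GRPEL2 kept their direction and stayed past the threshold in all 13 alternative fits, and HSPA9 and TIMM50 kept their direction in all 13. With 1 library left out at a time, 2 to 3 import genes rose and 0 to 3 fell. DESeq2's Wald test called 468 risen and 477 fallen genes, of which 2 risen and 0 fallen were import genes, and 3 risen and 3 fallen were in the related lists. With no filter 2 import genes fell. With 1 library left out, 689 to 1080 of all genes rose and 613 to 981 fell, and in the related lists 3 to 7 rose and 2 to 8 fell. Same-numbered libraries had correlations of 0.0437, −0.0505 and −0.0173 between their deviations from the group means. Differently numbered libraries had −0.0568 to 0.0756. These values gave no sign of pairing by replicate number, but so few libraries cannot show that it was absent. With the replicate number as a block, 965 genes rose and 854 fell, 2 import genes rose and 1 fell (the HSPA9 call ended, adjusted p = 0.0507), and 4 genes of the related lists fell (the OXA1L, ATAD1 and UQCRC1 calls ended, 0.0518, 0.0538 and 0.0522, as did that of CS among the risen, 0.0526). Changes of sign came only from leaving out a library, in 15 uncalled genes, whose log2 fold changes then ranged as follows: TOMM70 −0.07 to 0.01, TOMM6 −0.02 to 0.10, MTX1 −0.14 to 0.02, GFER −0.07 to 0.05, TIMM8B −0.04 to 0.05, TIMM9 −0.16 to 0.09, TIMM10 −0.05 to 0.05, TIMM10B −0.12 to 0.00, TIMM29 −0.01 to 0.22, TIMM17B −0.06 to 0.05, TIMM44 −0.07 to 0.02, PAM16 −0.02 to 0.16, GRPEL1 −0.05 to 0.02, PMPCB −0.02 to 0.08 and TIMM23B −0.10 to 0.25. The median level per length in mock cells was 20.7 CPM per kb, and 27.5 with the longest transcript. The cause of these shifts was not tested. Depth limits the members with the lowest counts, such as DNAJC19 and TIMM9, where a standard error of 0.12 to 0.13 leaves changes of the size of HSPA9's undetectable.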
